A study of Homo sapiens with 12 samples.

Results

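The genes described here are those of the proteasome, taken as every gene symbol made of PSMA, PSMB, PSMC, PSMD, PSME, PSMF or PSMG and a number. Of the 26475 symbols counted, 48 met this rule, and 46 of them had enough counts to be tested. PSMA8 and PSMB11, subunits of the testis and the thymus, had 2 counts each over all 12 libraries and were not tested.

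The proteasome is the large protease that degrades proteins tagged with ubiquitin. Its barrel, the 20S core, stacks rings of alpha and beta subunits, and 3 of the beta subunits cut peptide bonds. The 19S particle caps the barrel, binds the ubiquitin chain, removes it and feeds the unfolded protein in with a ring of ATPases. Dedicated chaperones build both parts, other activators (PA28 and PA200) can replace the 19S particle, and interferon exchanges the cutting subunits for the immune forms that make peptides for antigen presentation.

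The libraries came from stranded mRNA sequencing of SUM159 (SUM159PT) cells, an established human line of triple-negative, mesenchymal breast cancer. The cells, 1500000 per injection, were grown as tumours in female NOD scid gamma mice 8 weeks of age, a host without T, B and NK cells that keeps its myeloid cells, fibroblasts and vessels. Their food was a standard diet or, in weekly cycles, 4 days of fasting-mimicking diet. Sorting of stained tumour cells by human CD44 and CD24 gave CD44+CD24-Low cells, the population used as enriched for cancer stem cells, and CD44+CD24-High cells, used as the more differentiated one. The 4 groups of 3 libraries were thus CTR_LO and CTR_HI, the CD24-low and CD24-high cells of mice on standard diet, and FMD_LO and FMD_HI, the same populations of mice on the fasting-mimicking diet. No group carried a transgene or a deletion. All groups came from 1 cell line, and the labels do not say whether libraries came from separate mice, so that p-values measure the spread between these samples.

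Totals were 17736610 to 18579816 counts in FMD_LO and 29049144 to 47587142 in the other 9 libraries. All 8 markers chosen for SUM159, among them VIM, KRT8 and EGFR, were over 10 CPM (CPM are counts scaled to the TMM-adjusted size of the library) in every group, and against CTR_LO 6 of the 8 had a negative log2 fold change in FMD_LO (median -0.304), of which 1, KRT18, was called lower (-0.42 ± 0.12 SE, edgeR adjusted p = 0.0266). Markers of other cell types moved with FMD_LO. The summed level of 17 myeloid and leukocyte markers was 273 to 332 CPM in FMD_LO and 27.1 to 73.5 CPM elsewhere, with 10 of the 14 tested higher against CTR_LO, while the defining marker TYROBP was at 0 in FMD_LO. The sum of 12 fibroblast markers was 47100 to 69900 CPM in FMD_LO and 14000 to 35500 CPM elsewhere, with 7 of 12 higher, and that of 10 endothelial markers 92.6 to 126 CPM against 56.9 to 88.4 CPM, with 2 of 10 higher. Beside these counts, 12% of all genes tested were called higher and 4.33% lower in FMD_LO against CTR_LO. Of 10 lymphoid markers only 1 could be tested, and CD2 was at 0 in all groups. The fibroblast markers were not confined to FMD_LO: 9 to 11 of the 12 were over 10 CPM in each other group. The differences in these markers are in the same FMD_LO libraries as the results below, and their part in those results was not tested. In sorted bulk RNA, fewer cells of a type and less RNA per cell cannot be told apart.

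The proteasome took 0.391% to 0.488% of all counts in a library. The CPM of its genes summed to 4270.3, 4540.6 and 4418 in CTR_LO and to 4655.5, 4448.2 and 3682.8 in CTR_HI. In FMD_LO the sum was 4211.4, 4652.6 and 4920.9, and in FMD_HI 4090.1, 4193.1 and 4644.1. The 4 groups overlapped in this sum, of which no test was made. The members differed widely in level. Per kilobase of transcript, PSMB4, a structural beta subunit, was highest at 197 CPM per kilobase over the 12 libraries, followed by the alpha subunit PSMA7 at 183 and the PA28 subunit PSME1 at 177. PSMG4, a chaperone of the 20S core, was lowest among the tested genes at 2.22 CPM per kilobase. Although each 20S subunit enters the barrel in equal numbers, their transcript levels per kilobase spanned 7.49-fold, from 26.3 (PSMB2) to 197. The 17 subunits of the 19S particle spanned 12.6-fold, from 7.62 (PSMD12) to 96.3 CPM per kilobase (PSMD8). Both spans depend on the transcript length used, the longest annotated for each gene (4217 bases for PSMB2, 4406 for PSMD12).

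**Figure D1:**
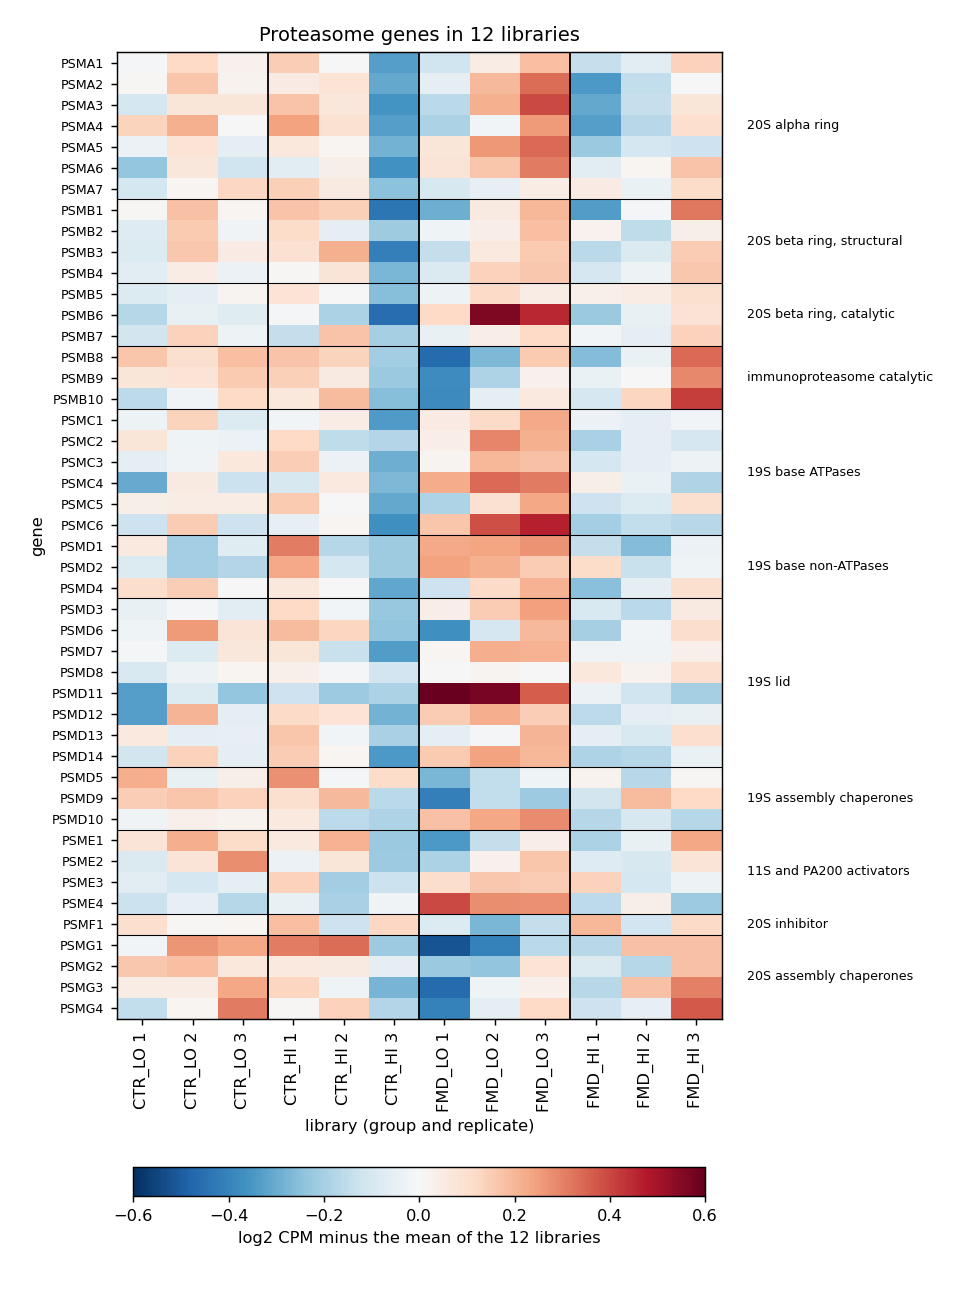
Log2 CPM of the 46 tested proteasome genes in the 12 libraries (columns, by group and replicate), each gene minus its mean over the libraries, ordered by role (labels at the right, colour scale below). FMD_LO libraries are red for PSMD11, PSME4, PSMC4 and PSMB6 and blue for PSMD9 and PSMG1, and the third CTR_HI library is blue for most genes.

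The promoters of 3 genes that carry the main comparison are shown first, for the element through which the factor NRF1 (gene NFE2L1) is known to raise proteasome genes when the protease is impaired. Each is the 250 bases before the start of the gene in the RefSeq annotation of GRCh38.p14, read 5′ to 3′ on the strand of the gene. Capitals mark matches to TGACNNNGC, the core of the antioxidant response element, searched on both strands. PSMD11 (19S lid) is chr17:32444260-32444509 on the plus strand, PSME4 (activator PA200) chr2:53970994-53971243 on the minus strand, and PSMD9 (19S chaperone) chr12:121888540-121888789 on the plus strand.
PSMD11: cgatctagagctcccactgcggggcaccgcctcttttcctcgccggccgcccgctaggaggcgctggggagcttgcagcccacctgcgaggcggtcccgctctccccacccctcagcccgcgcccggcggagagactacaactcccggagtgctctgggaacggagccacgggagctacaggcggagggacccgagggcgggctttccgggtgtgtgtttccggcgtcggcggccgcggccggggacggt
PSME4: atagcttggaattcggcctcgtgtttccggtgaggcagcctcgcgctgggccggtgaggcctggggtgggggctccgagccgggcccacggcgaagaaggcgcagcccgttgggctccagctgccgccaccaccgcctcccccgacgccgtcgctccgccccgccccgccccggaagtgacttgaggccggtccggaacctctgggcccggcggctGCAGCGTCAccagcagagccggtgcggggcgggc
PSMD9: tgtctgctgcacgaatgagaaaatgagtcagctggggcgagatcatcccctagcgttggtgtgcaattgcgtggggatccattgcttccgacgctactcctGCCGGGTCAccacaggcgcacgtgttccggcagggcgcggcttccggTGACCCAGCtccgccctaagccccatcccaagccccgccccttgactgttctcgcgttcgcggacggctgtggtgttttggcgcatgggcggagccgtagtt
The PSMD11 window held no match, the PSME4 window 1 and the PSMD9 window 2. In the wider windows described next, PSMC4 (higher in FMD_LO) and PSMG1 (lower) also held a match. Whether matches bear on the changes in FMD_LO was not tested. A match is only a string of letters, and none of these windows was measured for binding.

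Over windows of 250 bases before to 50 after the start, available for 42 of the 48 genes, TGACNNNGC was found in 15 (35.7%), against 17.8% of 16199 genes of the files. The CCAAT box was in 20 of 42 (47.6%, against 41.8%). The core of the interferon-stimulated response element (GAAA, any 2 bases, then GAAA again) was in 7 of 42 (16.7%, against 4.21%), and 4 of these 7 were among the 5 immune and PA28 genes with a window, namely PSMB8, PSMB10, PSME1 and PSME2. The gamma-activated site, TTCNNNGAA, was in 8 of 42 (19%, against 9.15%). Each motif was searched on both strands, matches of different motifs can share bases, and no test was made of the shares.

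Under the fasting-mimicking diet, CD24-low cells had more transcript of a few parts of the proteasome and less of 2 assembly chaperones than on standard diet. Of the 46 genes, 4 rose in FMD_LO against CTR_LO (edgeR quasi-likelihood test with Benjamini-Hochberg adjustment over the 15461 genes tested, adjusted p below 0.05): PSMD11, PSME4, PSMC4 and PSMB6. A further 2, PSMD9 and PSMG1, fell. The 6 are 13% of the 46, beside 16.4% of all genes tested (12% higher, 4.33% lower), so the proteasome as a list was called no more often than genes at large. With RLE in place of TMM scaling, 5 were higher and 0 lower: PSMC6 entered, and PSMD9 and PSMG1 dropped out.

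PSMD11 (RPN6), a lid subunit that clamps the 19S particle to the 20S core, had the largest difference. Its CPM was 52.5, 62.4 and 56.2 in CTR_LO, 60.6, 56.6 and 57.8 in CTR_HI, 99.4, 97.9 and 85.0 in FMD_LO, and 64.5, 60.8 and 57.5 in FMD_HI. All 3 FMD_LO libraries lay above the other 9, which overlapped with each other. Against CTR_LO, PSMD11 rose 1.65-fold (log2 fold change 0.72 ± 0.11 SE, edgeR adjusted p = 0.000523, n = 3 per group). The call held without any single library (adjusted p 0.000607 to 0.00399). PSMD11 lies at chr17:32444510-32483319 (GRCh38.p14).

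PSME4 encodes PA200, a single large protein that caps the 20S core and opens it without ATP or ubiquitin. Its CPM was 66.2, 69.9 and 64.2 in CTR_LO, 70.2, 63.3 and 71.4 in CTR_HI, 95.3, 87.7 and 87.6 in FMD_LO, and 64.8, 74.2 and 62.2 in FMD_HI. Again the FMD_LO libraries lay above all others. PSME4 (chr2:53864069-53970993) rose 1.35-fold against CTR_LO (log2 fold change 0.43 ± 0.11 SE, edgeR adjusted p = 0.0126). Its call was lost without CTR_LO replicate 3 or FMD_LO replicate 1, with an adjusted p of at most 0.0504.

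PSMC4 (RPT3) is an ATPase of the 19S base. It stood at 68.7, 87.8 and 77.3 CPM in CTR_LO, 79.3, 88.1 and 70.2 in CTR_HI, 98.9, 107 and 105 in FMD_LO, and 86.8, 82.3 and 74.8 in FMD_HI. FMD_LO did not overlap with any other group. The rise against CTR_LO was 1.33-fold (log2 fold change 0.41 ± 0.12 SE, edgeR adjusted p = 0.0342) for PSMC4, at chr19:39971165-39981764. Its call was lost in 5 of 12 fits without 1 library, those without CTR_LO replicate 1 or 3 or any FMD_LO library (adjusted p up to 0.139), and without the count filter.

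PSMB6 (beta 1) is the constitutive subunit with caspase-like activity, whose place PSMB9 takes in the immune form. Its CPM was 53.2, 58.1 and 56.9 in CTR_LO, 59.4, 52.4 and 43.6 in CTR_HI, 65.1, 88.2 and 82.0 in FMD_LO, and 51.3, 58.2 and 63.6 in FMD_HI. The lowest FMD_LO library was only just above the highest FMD_HI library, and the other 2 were far above it. PSMB6 (chr17:4796164-4798495) rose 1.40-fold against CTR_LO (log2 fold change 0.48 ± 0.14 SE, edgeR adjusted p = 0.0343). The call was lost in 6 of 12 fits, without any CTR_LO library, FMD_LO replicate 2 or 3, or FMD_HI replicate 2 (adjusted p up to 0.165).

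PSMD9 (p27), a chaperone that helps to assemble the ATPase ring, fell. Its CPM was 76.2, 77.0 and 75.6 in CTR_LO, 73.5, 78.7 and 61.3 in CTR_HI, 51.8, 62.1 and 59.0 in FMD_LO, and 63.6, 78.3 and 74.6 in FMD_HI. FMD_LO was below CTR_LO and FMD_HI, and overlapped with the lowest CTR_HI library. The log2 fold change of PSMD9 against CTR_LO was -0.40 ± 0.12 SE (edgeR adjusted p = 0.0394). The call was lost in 7 of 12 fits, without any CTR_LO or FMD_LO library or FMD_HI replicate 2 (adjusted p up to 0.158). PSMD9 (chr12:121888790-121918297) shares 436 bases of its span with WDR66 on the same strand, so its counts are uncertain there.

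PSMG1 (PAC1) pairs with PSMG2 to start the alpha ring. Its CPM was 42.0, 51.1 and 49.8 in CTR_LO, 52.6, 53.5 and 36.6 in CTR_HI, 29.7, 32.03 and 38.0 in FMD_LO, and 37.8, 48.0 and 47.9 in FMD_HI. FMD_LO lay below CTR_LO but overlapped with the lowest library of each CD24-high group. PSMG1 (chr21:39174769-39183514) had a log2 fold change of -0.52 ± 0.16 SE against CTR_LO (edgeR adjusted p = 0.046). That call was lost in 7 of 12 fits, without any CTR_LO library, FMD_LO replicate 1 or 2, or FMD_HI replicate 2 or 3 (adjusted p up to 0.168), with RLE scaling, and after thinning to the smallest total.

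**Figure D2:**
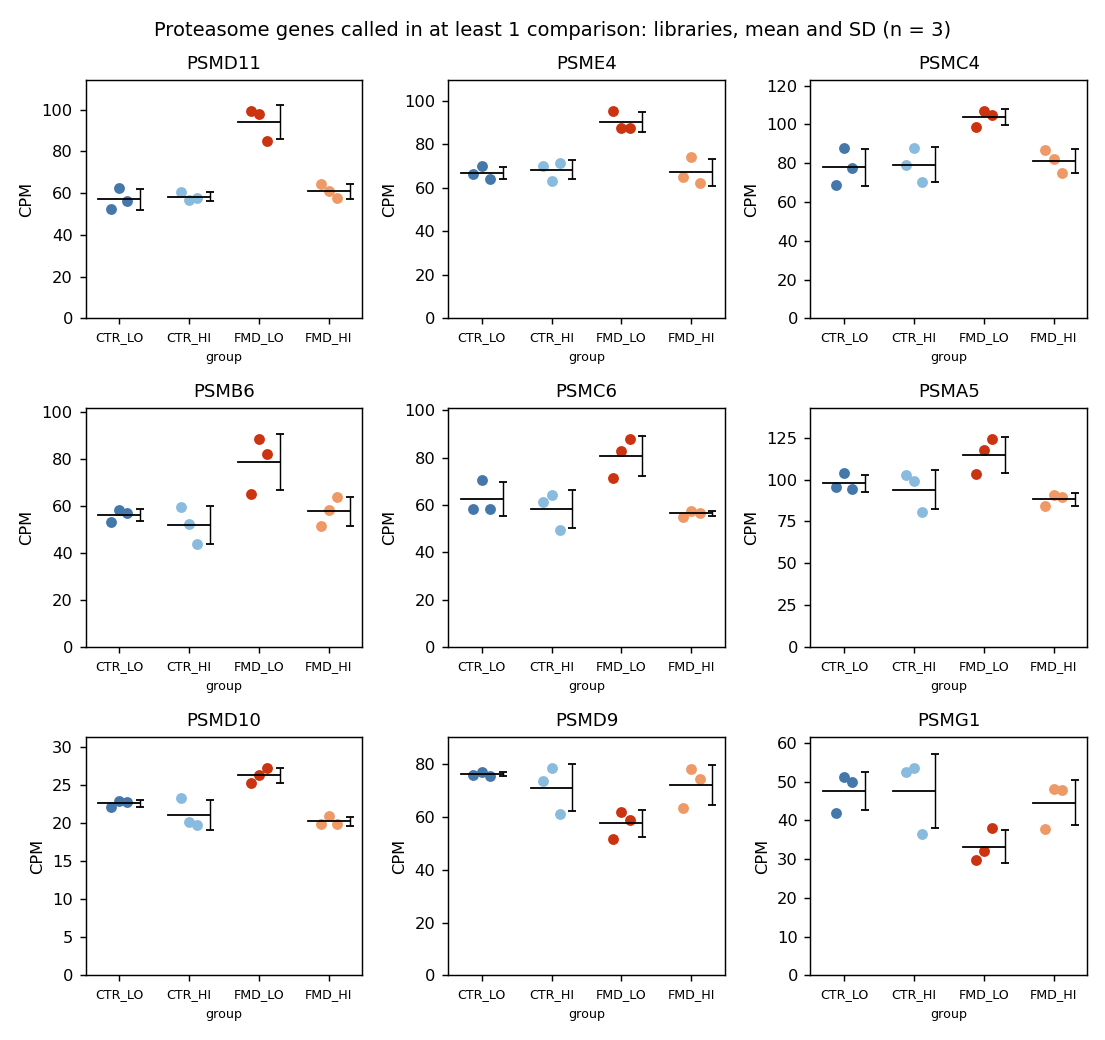
CPM (vertical axes, from 0) of the 9 proteasome genes called in at least 1 comparison, by group, each point a library, the long bar the mean and the whisker the SD (n = 3). In PSMD11 the FMD_LO libraries sit between 85.0 and 99.4 CPM, above the 9 other libraries at 52.5 to 64.5 CPM.

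The signs of the log2 fold changes in FMD_LO against CTR_LO are given by role, whatever the test, and no test compared the roles. Of the 46 values 27 were positive (58.7%, beside 46.8% of all genes) and 19 negative, with a median of 0.053 beside -0.031 over all genes, and 44 lay within 0.5 of 0. Libraries of the groups did not overlap for 12 genes in the higher direction (19.7% of all genes tested did so) and for 6 in the lower one (17.8% of all genes).

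In the 19S particle 15 of 17 genes had a positive log2 fold change (median 0.181, from -0.18 to 0.72), and 2 passed the test, PSMD11 and PSMC4. All 6 ATPases were positive, from 0.01 for PSMC5 to 0.41. The next in size after PSMC4 was PSMC6 at 0.37 ± 0.13 SE (edgeR adjusted p = 0.0666). The base scaffolds PSMD2 and PSMD1, which hold the ATPase ring and receive ubiquitin carriers, had 0.35 ± 0.12 (edgeR adjusted p = 0.0674) and 0.31 ± 0.14 (edgeR adjusted p = 0.143). PSMD2 was at 176, 162 and 165 CPM in CTR_LO and at 220, 216 and 207 in FMD_LO, with no overlap. PSMD14, the deubiquitinase of the lid, had 0.21 ± 0.13 (edgeR adjusted p = 0.297), and the lid subunit PSMD6 was negative at -0.18 ± 0.16 (edgeR adjusted p = 0.467).

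In the 20S core, 9 of 14 genes were positive with a median of 0.065, and PSMB6 alone passed the test. The 7 alpha subunits, which form the gate, ranged from -0.09 (PSMA4) to 0.28 (PSMA6, edgeR adjusted p = 0.165). The other constitutive cutting subunits differed little, PSMB5 (chymotrypsin-like) at 0.08 ± 0.11 (edgeR adjusted p = 0.629) and PSMB7 (trypsin-like) at 0.04 ± 0.12 (edgeR adjusted p = 0.871). Counts of PSMB7 depend on strand: reads counted on either strand were 43.4% of those on the reverse strand, and with either strand PSMB7 was called in this comparison.

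All 4 chaperones of the 20S core were negative, with a median of -0.249. Beside PSMG1, PSMG2 had -0.25 ± 0.13 (edgeR adjusted p = 0.194), PSMG3 -0.25 ± 0.16 (edgeR adjusted p = 0.32) and PSMG4 -0.17 ± 0.19 (edgeR adjusted p = 0.587). POMP, the maturation factor of the core that lies outside the symbol rule, had -0.28 ± 0.17 (edgeR adjusted p = 0.283). Of the 3 chaperones of the 19S base, PSMD5 had -0.22 ± 0.12 and PSMD10 (gankyrin) 0.22 ± 0.11 (edgeR adjusted p = 0.239 and 0.181), so this role was not one-sided. PSMF1 (PI31), an inhibitor of the 20S core in the test tube, had -0.20 ± 0.12 (edgeR adjusted p = 0.261).

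**Figure D3:**
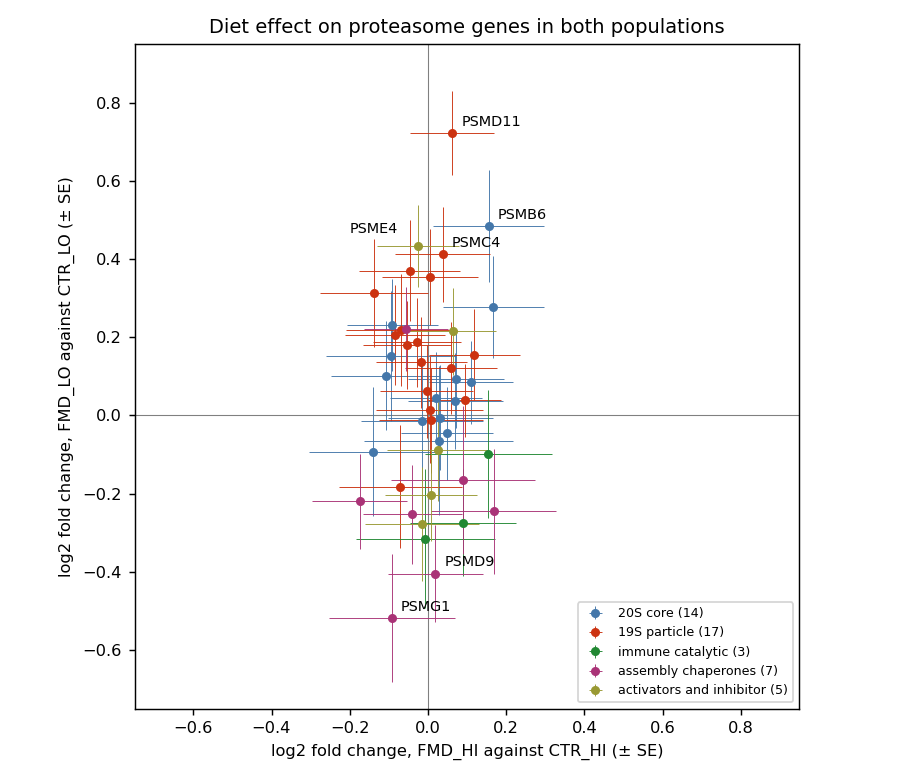
Log2 fold change of the diet for the 46 tested genes in CD24-high cells (horizontal axis) and CD24-low cells (vertical axis), bars ± SE, colours by role, with the genes called in CD24-low cells named. Points spread from -0.52 to 0.72 on the vertical axis and from -0.17 to 0.17 on the horizontal one.

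In CD24-high cells the diet moved no proteasome gene past the test: 0 of 46 were called in FMD_HI against CTR_HI, beside 0% of all genes. Without adjustment 0 of 46 had p below 0.05 (edgeR), beside 6.74% of all genes, and DESeq2 also called 0. Libraries of the groups overlapped for all 46 genes, where 4.48% of all genes did not overlap in the higher and 4.72% in the lower direction. The log2 fold changes ran from -0.17 (PSMD5) to 0.17 (PSMG3), and their 95% intervals lay within -0.49 to 0.51, so changes beyond about those bounds are outside the intervals and smaller ones are not excluded. PSMD11 had 0.06 and PSME4 -0.03 here, in the libraries listed above.

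The populations on standard diet did not differ in any proteasome gene past the test either. In CTR_LO against CTR_HI 0 of 46 were called, beside 0% of all genes, by edgeR and by DESeq2. Libraries did not overlap for 1 gene in the higher direction, PSMG2 (1.96% of all genes), and for 0 in the lower one (1.47%). Unadjusted p was below 0.05 for 0 members and 0.589% of all genes, and the 95% intervals lay within -0.40 to 0.50. All 14 genes of the 20S core had small positive log2 fold changes, 0.01 to 0.12. The third CTR_HI library, described below, was the lowest of its group for most of them.

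On the fasting-mimicking diet the populations differed. In FMD_LO against FMD_HI 5 of 46 genes rose, PSMD11, PSME4, PSMC6, PSMD10 and PSMA5, and 0 fell (edgeR, adjusted p below 0.05). They are 10.9% of the 46, beside 14% of all genes (12.2% higher, 1.84% lower). Libraries did not overlap for 14 genes in the higher (18.3% of all genes) and 2 in the lower direction (13.1%). This comparison shares the FMD_LO libraries with the one above and is not independent of it. PSMD11 was 1.54-fold higher (log2 fold change 0.63 ± 0.11 SE, edgeR adjusted p = 0.00124; 0.00153 to 0.00844 without any 1 library), and PSME4 1.34-fold (0.43 ± 0.11 SE, adjusted p = 0.0135). The call of PSME4 was lost without FMD_LO replicate 1 or FMD_HI replicate 3 (adjusted p at most 0.0586).

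PSMC6 (RPT4), an ATPase of the base, stood at 58.3, 70.6 and 58.3 CPM in CTR_LO, 61.4, 64.1 and 49.3 in CTR_HI, 71.2, 83.0 and 87.7 in FMD_LO, and 55.1, 57.4 and 56.6 in FMD_HI. FMD_LO lay above all the others, by little in the case of CTR_LO replicate 2. PSMC6 rose 1.43-fold against FMD_HI (log2 fold change 0.52 ± 0.13 SE, edgeR adjusted p = 0.0148), a call lost in 3 of 12 fits, without FMD_LO replicate 2 or 3 or FMD_HI replicate 2 (adjusted p up to 0.0668). PSMC6 lies at chr14:52707200-52728590.

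PSMD10 (gankyrin), the chaperone that binds PSMC4, stood at 22.1, 22.9 and 22.7 CPM in CTR_LO, 23.3, 20.1 and 19.7 in CTR_HI, 25.3, 26.3 and 27.2 in FMD_LO, and 19.9, 20.9 and 19.9 in FMD_HI. FMD_LO was above every other library. The log2 fold change of PSMD10 against FMD_HI was 0.38 ± 0.11 SE (edgeR adjusted p = 0.0321). The alpha subunit PSMA5 had 103, 118 and 124 CPM in FMD_LO and 84.0, 91.1 and 89.9 in FMD_HI, without overlap, but overlapped with the 95.7, 104 and 94.3 of CTR_LO, and CTR_HI had 102.5, 99.05 and 80.7. PSMA5 had a log2 fold change of 0.38 ± 0.12 SE against FMD_HI (edgeR adjusted p = 0.0448). Both calls were fragile: PSMD10 kept its call in 2 and PSMA5 in 3 of 12 fits without 1 library (adjusted p up to 0.111 and 0.165), and neither was called without the count filter, in libraries thinned to equal depth, or with only the compared groups.

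Libraries of FMD_LO and FMD_HI with the same number deviated together over genes, so the comparison was also fitted with the pairs as a block, chosen after the data were seen. With the replicate block within each diet 13 genes were called, 11 higher and 2 lower, beside 27.2% of all genes (16.8% higher, 10.3% lower). They held all 5 genes above, and further PSMA2, PSMB6, PSMC2, PSMC4, PSMD1 and PSMD14 as higher and PSMD9 and PSMG1 as lower. In that fit PSMD1 had a log2 fold change of 0.39 (edgeR adjusted p = 0.00772), PSMB6 0.44 (0.00975), PSMC4 0.35 (0.0143), PSMD9 -0.32 (0.0153) and PSMG1 -0.42 (0.0347). The direction of each of the 6 genes called between the diets in CD24-low cells was the same here, in a comparison with the same FMD_LO libraries.

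The effect of the diet itself was compared between populations by the interaction term. It was called for 1 of 46 genes, PSMD11 (2.17%, beside 4.13% of all genes, 4.07% higher and 0.0517% lower): the diet effect was 0.66 ± 0.15 SE larger on the log2 scale in CD24-low than in CD24-high cells (edgeR adjusted p = 0.0265). PSMD11 kept this call in 5 of 12 fits without 1 library (adjusted p up to 0.0811), and lost it without CTR_LO replicate 1 or 3, CTR_HI replicate 1, FMD_LO replicate 1 or 2, or FMD_HI replicate 2 or 3, and without the count filter. For PSME4 the term was 0.46 ± 0.15 SE (edgeR adjusted p = 0.118). With the replicate block within each diet 4 genes were called, beside 11% of all genes (8.97% higher, 2.04% lower): PSMD1, PSMD11 (adjusted p = 0.00504), PSME4 (0.0415) and PSMD9 (-0.43, 0.0402). DESeq2 without a block called 2, PSMD11 and PSME4.

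The immune subunits PSMB8 (beta 5i), PSMB9 (beta 1i) and PSMB10 (beta 2i) replace PSMB5, PSMB6 and PSMB7 in the barrel. The promoters of PSMB10 and of PSME2, the PA28 subunit beta, are given to show the interferon element, which 4 of the 5 immune and PA28 genes held and 2 of the 26 core and 19S subunits with a window (7.69%). They are the 250 bases before the start in RefSeq on GRCh38.p14, PSMB10 at chr16:67936851-67937100 and PSME2 at chr14:24146611-24146860, both on the minus strand, and capitals mark the core of that element.
PSMB10: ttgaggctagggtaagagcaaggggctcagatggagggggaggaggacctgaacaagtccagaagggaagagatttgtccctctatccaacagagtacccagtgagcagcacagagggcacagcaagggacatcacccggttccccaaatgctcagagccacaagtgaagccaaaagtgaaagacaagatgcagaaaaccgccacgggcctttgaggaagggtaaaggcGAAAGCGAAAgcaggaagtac
PSME2: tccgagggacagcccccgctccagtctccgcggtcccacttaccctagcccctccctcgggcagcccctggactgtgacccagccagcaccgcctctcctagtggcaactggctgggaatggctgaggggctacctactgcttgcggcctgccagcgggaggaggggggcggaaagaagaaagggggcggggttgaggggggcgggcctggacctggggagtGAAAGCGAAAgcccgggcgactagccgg
The matches of PSMB10 and PSME2 begin 21 and 28 bases before the start.

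None of the 3 immune subunits passed the test in any comparison. Against CTR_LO the log2 fold change in FMD_LO was -0.32 ± 0.18 SE for PSMB8, -0.27 ± 0.14 for PSMB9 and -0.10 ± 0.16 for PSMB10 (edgeR adjusted p = 0.245, 0.189 and 0.725). PSMB9 was at 78.5, 78.9 and 83.2 CPM in CTR_LO, 57.5, 65.5 and 76.0 in FMD_LO and 72.6, 74.6 and 91.0 in FMD_HI. Its FMD_LO libraries lay below those of CTR_LO and overlapped with FMD_HI. PSME1, the alpha subunit of the PA28 activator that works with the immune forms, had -0.28 ± 0.15 (edgeR adjusted p = 0.216), and PSME2 -0.09 ± 0.13 (edgeR adjusted p = 0.687). PSME3, the nuclear PA28 gamma, had 0.22 ± 0.11 (edgeR adjusted p = 0.208).

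PSMB9 counts as a share of PSMB9 plus PSMB6 made 59.6%, 57.6% and 59.4% in CTR_LO, and 58.2%, 59.7% and 59.5% in CTR_HI. The share was 46.9%, 42.6% and 48.1% in FMD_LO and 58.6%, 56.2% and 58.9% in FMD_HI. Every FMD_LO library was below every other library, with group means of 58.9% ± 1.10, 59.1% ± 0.833, 45.9% ± 2.86 and 57.9% ± 1.48 (SD, n = 3). Of the genes in that ratio PSMB6 passed the test against CTR_LO and PSMB9 did not. The share of PSMB8 beside PSMB5 was 45.2%, 46.0% and 54.6% in FMD_LO and 47.6%, 51.2% and 56.8% in FMD_HI, which overlapped with each other, and 53.4% to 56.9% on standard diet. PSMB10 beside PSMB7 took 21.1% ± 1.75 in FMD_LO and 22.9% ± 1.92, 23.8% ± 1.69 and 24.7% ± 2.39 in CTR_LO, CTR_HI and FMD_HI, all overlapping. With reads of either strand it was 33.6% in FMD_LO and 41.8%, 42.5% and 44.3% in CTR_LO, CTR_HI and FMD_HI. No test was made of these shares, and they describe transcripts, not assembled particles. PSMB9 shares 139 bases with PSMB8-AS1 on the same strand.

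**Figure D4:**
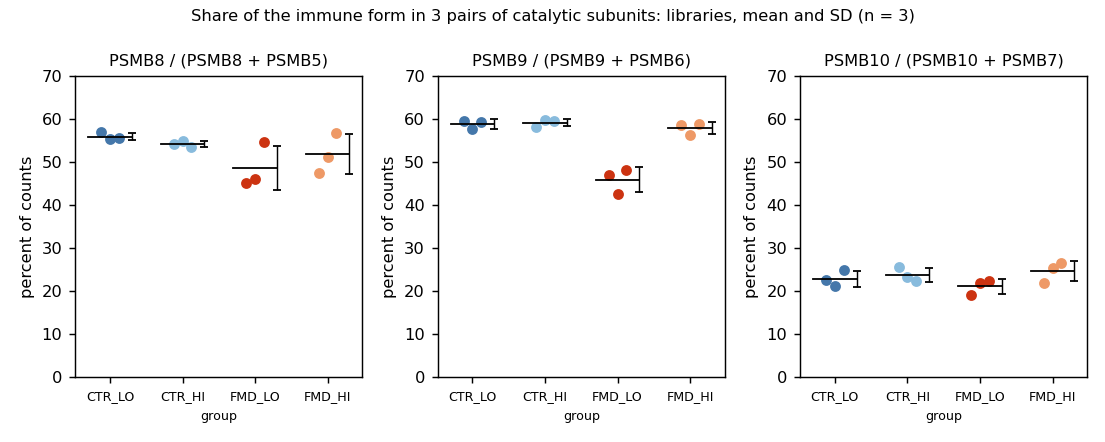
Counts of an immune subunit as percent of its counts plus those of the constitutive subunit it replaces (vertical axes from 0), by group, each point a library, with mean and SD (n = 3). For PSMB9 the FMD_LO libraries are at 42.6% to 48.1% and the other 9 at 56.2% to 59.7%.

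The proteasome genes moved together between libraries of one group. CTR_HI replicate 3 was the lowest of its group for 41 of 46 genes (33.8% of all genes), with a median deviation of -0.213 on the log2 scale from the group mean, where all genes had 0.008. FMD_LO replicate 1 was the lowest of its group for 40 of 46 (34.4% of all genes), at a median of -0.137. FMD_HI replicate 1 was lowest for 29 (32% of all genes) and CTR_LO replicate 1 for 28 (33.8% of all genes). The third library was highest for 31 genes in FMD_LO and 33 in FMD_HI, for which no share of all genes is given. With RLE scaling CTR_HI replicate 3 was lowest for 41 and FMD_LO replicate 1 for 39. The genes share each library and its scaling, so these counts describe libraries and are not replicates. Within-group spread was unequal: the median coefficient of variation of the 46 genes was 5.72% in CTR_LO and 13.7% in CTR_HI, against 9.26% and 12.9% for other genes over 10 CPM. In FMD_LO it was 9.22% against 11.6%, and in FMD_HI 8.52% against 11.7%.

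The counts of proteasome genes called changed when single libraries were left out, whether or not these libraries stood apart. Without CTR_HI replicate 3, which is in neither group of these comparisons but in the common fit, 8 genes were called in FMD_LO against CTR_LO and 8 in FMD_LO against FMD_HI. Without FMD_LO replicate 1, the counts were 2 and 4, and without FMD_LO replicate 2 both were 2. CTR_LO replicate 3 mattered most in FMD_LO against CTR_LO, where PSMD11 alone was called without it, and 2 or 3 genes were called without CTR_LO replicate 1 or 2. In FMD_LO against FMD_HI 2 genes were called without FMD_LO replicate 3, FMD_HI replicate 2 or FMD_HI replicate 3, and 3 without any 1 CTR_LO library, CTR_HI replicate 2 or FMD_HI replicate 1. Without FMD_LO replicate 3 or FMD_HI replicate 2, 3 genes were called in FMD_LO against CTR_LO. No share of all genes called is given for these fits, so the counts cannot be set against genes at large.

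**Figure D5:**
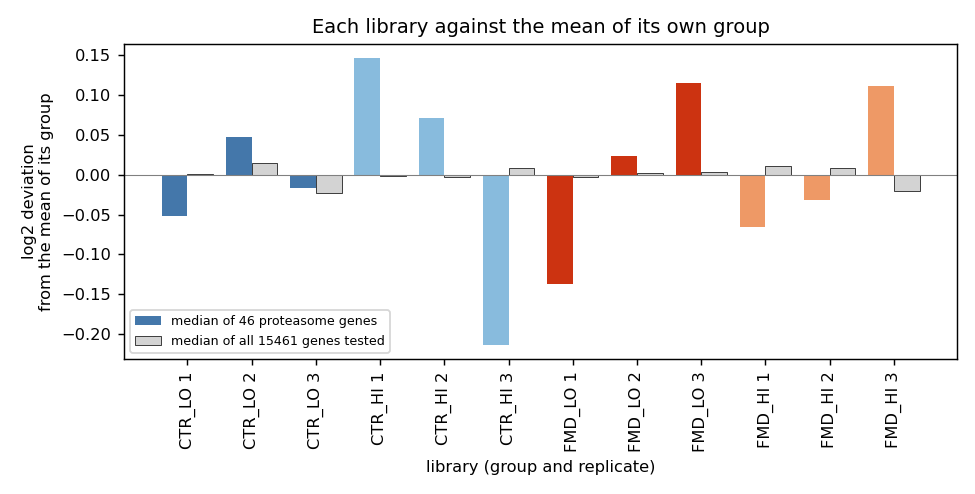
Median log2 deviation of each library (horizontal axis) from the mean of its own group, over the 46 proteasome genes (coloured bars) and over all 15461 genes tested (grey bars). CTR_HI replicate 3 at -0.213 and FMD_LO replicate 1 at -0.137 lie lowest while the medians over all genes stay near 0.

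Genes that feed or control the proteasome were counted from lists chosen by role, with earlier results of these data known. Of 26 tested ubiquitin genes, ligases and shuttle factors, 7 rose and 1 fell in FMD_LO against CTR_LO (30.8%, beside 16.4% of all genes). UBB, 1 of the 4 genes that encode ubiquitin, was at 346, 493 and 324 CPM in CTR_LO, 303, 361 and 285 in CTR_HI, 1855, 1920 and 1614 in FMD_LO, and 299.8, 312 and 337 in FMD_HI. Its FMD_LO libraries were far above all others, and UBB rose by 2.21 ± 0.16 SE on the log2 scale (edgeR adjusted p = 3.01e-06). The conjugating enzymes UBE2D3 (0.84) and UBE2D2 (0.67) and the ligases UBR4 (0.85) and HUWE1 (0.74) also rose, while UBE2C, the conjugating enzyme of mitotic exit, fell by 1.18 ± 0.33 on the log2 scale (edgeR adjusted p = 0.0327). The call of UBE2C was lost without the count filter and in 5 of 12 fits without 1 library, those without CTR_LO replicate 2 or 3, FMD_LO replicate 1 or 2, or FMD_HI replicate 1 (adjusted p up to 0.139).

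Of 20 tested genes that control transcription of proteasome genes, 3 rose against CTR_LO (15%, beside 16.4% of all genes). DDI2, the protease that activates NRF1, was at 2.61, 3.43 and 3.12 CPM in CTR_LO, 2.56, 3.34 and 5.12 in CTR_HI, 15.3, 10.2 and 7.87 in FMD_LO, and 4.50, 3.15 and 2.60 in FMD_HI. Each FMD_LO library was above all others, and DDI2 rose by 1.87 ± 0.31 SE on the log2 scale (edgeR adjusted p = 0.000995), though it shares 1854 bases with RSC1A1 on the same strand. VCP (p97), the unfoldase that extracts proteins for the proteasome, rose by 0.49 ± 0.10 and STAT3 by 0.60 ± 0.15 (edgeR adjusted p = 0.00348 and 0.0137). The call of STAT3 was lost without CTR_LO replicate 1 or FMD_LO replicate 1 (adjusted p up to 0.0618). NFE2L1, which encodes NRF1, had 0.07 ± 0.12 (edgeR adjusted p = 0.742).

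Among 15 tested partners of the proteasome with other symbols, 3 rose (20%, beside 16.4% of all genes). TXNL1, a thioredoxin bound to the 19S particle, was at 52.7, 64.9 and 47.4 CPM in CTR_LO and at 83.7, 85.6 and 73.7 in FMD_LO, without overlap, and rose by 0.56 ± 0.13 SE on the log2 scale (edgeR adjusted p = 0.0081). TXNL1 also rose against FMD_HI, by 0.71 ± 0.13 (edgeR adjusted p = 0.0015). AKIRIN2, which carries proteasomes into the nucleus, rose by 0.61 ± 0.17, and KIAA0368 (ECM29), which binds both parts of the particle, by 0.37 ± 0.10 (edgeR adjusted p = 0.0243 and 0.0194). The calls of AKIRIN2 and KIAA0368 were lost in 4 and 5 of 12 fits without 1 library.

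Of 31 tested genes of the interferon response and class I antigen processing, 3 rose and 2 fell in FMD_LO against CTR_LO (16.1%, beside 16.4% of all genes). The kinases JAK2 (3.24) and JAK1 (1.23) and the ubiquitin-like UBD (1.34) were higher, and the receptor chain IFNGR2 (-0.32) and the peptide trimmer ERAP2 (-0.55) lower. UBD shares 722 bases with GABBR1 on the same strand, so its counts are uncertain there. JAK1 and JAK2 kept their calls in 12 of 12 fits without 1 library. The calls of IFNGR2, ERAP2 and UBD were lost in 7, 4 and 5 of these fits, without CTR_LO replicate 1 or 3 and without FMD_LO replicate 1 or 2 for each of them (adjusted p up to 0.131, 0.0943 and 0.125). That of IFNGR2 was also lost with RLE scaling, without the count filter, with only the compared groups and after thinning. The factor IRF1, which drives the immune subunits, had -0.41 ± 0.22 (edgeR adjusted p = 0.22). TAP1, the peptide transporter encoded next to PSMB9, was at 156, 138 and 140 CPM in FMD_LO and 187, 187 and 176 in FMD_HI, and fell by 0.34 on the log2 scale in that comparison (edgeR adjusted p = 0.0388, lost in 7 of 12 fits without 1 library). The call of TAP1 was also lost with RLE scaling, without the count filter and with only the compared groups. The COP9 signalosome and eIF3, complexes with subunits related to the 19S lid, had 0 of 21 genes called against CTR_LO. Not every eIF3 gene counted is such a relative. The chaperonin, another large ring complex, had 0 of 8 called. Without adjustment, p (edgeR) was below 0.05 for 2 of those 21 and 1 of those 8, beside 31% of all genes. DESeq2 called 1 of the 21 as lower and 0 of the 8.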

How the data were processed

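Polyadenylated RNA of 12 sorted samples (4 groups of 3) was sequenced after a stranded kit with 500 ng of total RNA, per the labels' protocols. The deposited values are raw read counts per gene symbol, made by the authors with STAR on hg38, per the submitters' processing notes. No version of STAR, annotation release or removal of mouse host reads is given in the sources used here. For these libraries the reverse-strand column was used, the strand that this kit reads. Forward-strand reads made 1.59% to 1.75%.

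All 4 groups were fitted together with edgeR 4.0.16 (R 4.3.3; robust quasi-likelihood, TMM, default count filter, 15461 genes kept of 26475, biological coefficient of variation 0.19). In each of 5 comparisons, p-values were adjusted by Benjamini-Hochberg over the genes tested, and an adjusted p below 0.05 was a call. SE is the log2 fold change over the root of the F statistic. CPM use TMM-scaled totals. In simulated counts for FMD_LO against CTR_LO, changed genes were drawn at random from those tested. At a true log2 change of 0.5, 9.09% of 77 genes were called in the right direction. It was 61.2% of 67 at a change of 1 and 79.6% of 54 at 2, with 10 false calls among 15254 genes. Genes at large that were not called may thus differ by such amounts. The shares recovered were not computed for proteasome genes alone. In FMD_LO against CTR_LO, confidence intervals of the proteasome genes not called lay within -0.697 (PSMB8) to 0.647 (PSMC6) on the log2 scale. Changes of 1 or 2 are outside these intervals, and a change of 0.5 is not excluded for all of these genes. The members and all gene lists were chosen with earlier results of these data known. Every member could be named, in full if called, otherwise by the largest change or level of its role. Of each list at most 6 called genes were named, by smallest p, together with genes that a result turns on. Some genes of these lists are withheld and not reported here.

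Positions and promoters came from RefSeq (GRCh38.p14, the primary assembly of hg38), with positions for 48 and promoters for 42 of 48 members. Levels per kilobase use the longest protein-coding GENCODE transcript of a gene that is paired with a RefSeq accession. Which transcript was present in these cells was not determined. Replicate numbers were checked for pairing over 9258 genes: same-numbered FMD_LO and FMD_HI libraries correlated in their deviations from the group means at 0.783, 0.571 and 0.774, and CTR_LO and CTR_HI at 0.593, 0.719 and -0.005. The pairing comes from the data, since the labels do not state it. Alternatives were DESeq2 1.42.0, RLE scaling, counts of either strand, all genes without the filter, only the compared groups, replicate blocks, thinning to the smallest total, counts per kilobase, and each library left out.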

Additional observations from a re-analysis of the deposited data

Results flagged for a closer look

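The effect of the diet differed between the populations, by the interaction term of edgeR with Benjamini-Hochberg adjustment over all genes, for 6 of the genes named. By this term 4.13% of all genes were called (4.07% higher, 0.0517% lower). Genes were named in part for being called, so 6 is not a rate. For PSMD11, the effect in CD24-low cells minus that in CD24-high cells was 0.66 on the log2 scale (adjusted p = 0.0265), higher in 3 of 3 FMD_LO libraries than in every other library. It was called in 5 of 12 fits without 1 library (adjusted p up to 0.0811), and not without the count filter. UBB had a difference of 2.21 (adjusted p = 0.000156) and DDI2 of 1.98 (adjusted p = 0.0191), and for both genes, too, 3 of 3 FMD_LO libraries lay above the other 9. The call of DDI2 was lost without FMD_HI replicate 2 and that of UBB in 0 of 12 fits without 1 library. JAK2 had a difference of 2.87 (adjusted p = 0.00702) and JAK1 of 1.20 (adjusted p = 0.0131), both called in 12 of 12 such fits. UBE2D2 had 0.67 (adjusted p = 0.0432), called in 1 of 12, and not with reads of either strand, without the count filter or after thinning. Markers of myeloid cells and fibroblasts were also higher in the FMD_LO libraries, and their part in these differences was not tested.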

How the results depend on the processing

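No named gene reversed direction in a comparison in which it was called, over the alternatives run. Of the named genes not called in FMD_LO against CTR_LO, 6 changed sign: PSMC5 to -0.0087 without the count filter, and over the fits without 1 library PSMC5 (log2 fold change -0.0901 to 0.118), PSMB7 (-0.0255 to 0.0924), NFE2L1 (-0.0354 to 0.1593), PSME2 (-0.1839 to 0.0202), PSMA4 (-0.2293 to 0.0038) and PSMB10 (-0.2022 to 0.0152). PSMG1 lost its call there with RLE scaling and after thinning, and PSMC4 without the count filter. The count of proteasome genes called in FMD_LO against CTR_LO was 5 to 8 with other settings and 1 to 8 with each library left out. In FMD_LO against FMD_HI it was 5, and 3 without the count filter, 3 after thinning to the smallest total, 13 with the replicate block within each diet, and 2 to 8 with each library left out. The interaction gave 1, and 0 without the count filter, 2 with DESeq2, 4 with the block within each diet, and 0 to 1 with each library left out. The remaining comparisons gave 0 throughout. A replicate block over all groups gave 7, 5 and 1 in these 3 comparisons. Apart from the block within each diet, no share of all genes called is given for these alternatives. Their counts thus cannot be set against genes at large.

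The share of PSMB10 beside PSMB7 moved to 41.8%, 42.5%, 33.6% and 44.3% (CTR_LO, CTR_HI, FMD_LO, FMD_HI) with reads of either strand, since PSMB7 then kept 43.4% of its counts. Per kilobase it was 19.3%, 20%, 17.7% and 20.9%. PSMB8 beside PSMB5 became 54.8% and 53.1% in CTR_LO and CTR_HI, and PSMB9 beside PSMB6 61.4%, 61.7% and 60.5% in CTR_LO, CTR_HI and FMD_HI, beside 48.5% in FMD_LO. PSMB8 beside PSMB5 was 47.5% in FMD_LO and 50.8% in FMD_HI. The cause of the other changes was not tested. FMD_LO had the lowest depth, and the part of depth in the results was not tested. After thinning, PSMD11 kept its calls in all 3 comparisons. PSMG1 lost its call against CTR_LO, and PSMA5 and PSMD10 lost theirs against FMD_HI.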
